A study of Mus musculus with 7 samples.

Results

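The mitochondrial ribosome, or mitoribosome, is the machine inside mitochondria that translates the few messages of the mitochondrial genome, all of which encode subunits of the respiratory chain and ATP synthase. Its ribosomal RNAs are made in the organelle, but every one of its proteins is encoded in the nucleus and imported. Proteins named Mrpl belong to the large subunit and proteins named Mrps mostly to the small subunit, and some descend from bacterial ribosomal proteins while others are found only in mitochondria. Inherited defects in several of them, among them Mrps16, Mrps22, Mrps34, Mrpl3 and Mrpl44, are known causes of combined respiratory chain deficiency that affects energy-demanding tissues such as brain and heart.

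The genes described here are the protein-coding genes whose mouse symbol starts with Mrpl or Mrps followed by a digit and that had at least 10 counts in every library. All 78 genes with such a symbol passed this minimum, out of 52636 genes in the files. The lowest was Mrpl53, with 10 counts in 1 library, and no gene with such a symbol lay outside the minimum. They comprise 51 large subunit genes, 26 small subunit genes and Mrps36, whose product is now known as a component of the 2-oxoglutarate dehydrogenase complex and not of the mitoribosome. Mrps30 and Mrps18a carry small subunit names, but their products sit in the large subunit, and both were counted there. By origin, 30 large and 16 small subunit genes have a bacterial counterpart, and 21 large and 10 small subunit genes are specific to mitochondria.

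RNA-seq was performed on the dorsal midbrain of newborn mice to compare expression with and without *Brn3b* (*Pou4f2*), a transcription factor gene. The 3 control mice carried 1 conditional and 1 wild-type allele with *En1-Cre* (*Brn3b* flox/+ :: *En1-Cre*, labelled heterozygote), whereas each of the 4 cKO mice had a null allele beside the conditional one, again with *En1-Cre* (*Brn3b* flox/- :: *En1-Cre*, labelled homozygote). Every mouse thus carried the Cre driver and 1 conditional allele, no mouse had 2 wild-type alleles, and the null allele of the cKO mice is present in all cells, while Cre acts in the cells of the *En1* lineage. Once recombined, the conditional allele expresses human placental alkaline phosphatase in place of *Brn3b*. Control mice A2 and A6 were P4 and A4 was P3, whereas cKO mice B1 and B8 were P4 and B7 and B9 were P2, so that P2 occurred only among cKO mice.

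The libraries held 23588248 to 87572085 counts on genes, of which the 78 genes together made up 48270 to 141814. *Brn3b* was at 45.8 to 47.4 CPM (counts set to 1 library size for all mice) for controls, but only at 9.65 to 11.6 CPM for cKO mice, which matched the labels. The dorsal midbrain markers En1, En2, Pax7 and Pou4f1 summed to 192 to 253 CPM in every library, most of it from Pou4f1 and Pax7. En1 was at 3.05 to 3.48 CPM in controls, compared with 2.78, 5.39, 12.3 and 7.78 CPM in B1, B7, B8 and B9, and En2 at 11.2 to 15.8 CPM, compared with 11.1, 22.4, 22.7 and 27.4 CPM. The list had a median log2 fold change of 0.50, or of 0.67 corrected for length and GC content, and edgeR called 0 of its 4 genes, while En1 and En2 were higher at an unadjusted p under 0.05. DESeq2 also called 0, and limma-voom called 2 higher. The part of these markers in the results was not tested. One library stood apart from its group: cKO mouse B8 lay with the controls in most measures below, and results are therefore given with and without it.

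Sequences upstream of these genes are shown first, and their part in the results was not tested. The genes are scattered over the genome. They lie on 17 chromosomes, with 11 on chromosome 11 and 8 on chromosome 17. RefSeq windows (GRCm38.p6, from 250 bases before to 50 after the start) were found for 69 of the 78 genes. Short strings were searched on both strands, each named for the factor or element known to use it. The ETS string CCGGAAG occurred in the windows of 26 genes (37.7%, against 17.3% of 12055 protein-coding genes tested), the YY1 string AAGATGGC in 12 (17.4% against 4.504%), the NRF1 string GCGCATGCG in 7 (10.1% against 3.625%) and the TATA string TATAAA in 5 (7.25% against 9.35%). At least 1 of the first 3 strings was found in 38 genes (55.1% against 23.4%). NRF1, ETS factors and YY1 are known regulators of nuclear genes for mitochondrial proteins, but a match is only a match of letters and no binding was measured here.

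The following stretches, read 5′ to 3′ on the strand of the gene, lie before the annotated start and overlap no annotated exon. They are shown as examples from both subunits, with the NRF1 or ETS string or its reverse complement in capitals. Mrpl10 (chr11:97041421-97041480, plus strand) holds the NRF1 string, Mrpl22 (chr11:58171595-58171654, plus strand) holds both strings, and Mrpl34 (chr8:71464862-71464921, plus strand), Mrpl52 (chr14:54426835-54426894, plus strand), Mrps22 (chr9:98601680-98601739, minus strand) and Mrps27 (chr13:99344711-99344770, plus strand) hold the ETS string.
Mrpl10: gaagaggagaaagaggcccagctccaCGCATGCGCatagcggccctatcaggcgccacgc
Mrpl22: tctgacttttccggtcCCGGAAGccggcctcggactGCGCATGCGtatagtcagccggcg
Mrpl34: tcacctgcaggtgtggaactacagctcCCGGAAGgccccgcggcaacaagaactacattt
Mrpl52: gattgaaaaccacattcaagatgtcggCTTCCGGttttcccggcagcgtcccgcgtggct
Mrps22: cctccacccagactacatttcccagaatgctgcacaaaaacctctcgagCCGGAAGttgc
Mrps27: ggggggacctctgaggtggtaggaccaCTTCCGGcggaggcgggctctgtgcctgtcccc

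The YY1 string contains ATG, and in most windows that hold it the match lay just after the start. Sites of 30 bases are shown for 3 small subunit genes with the string in capitals. The sites are in Mrps7 (chr11:115604147-115604176, plus strand), Mrps24 (chr11:5707652-5707681, minus strand) and Mrps27 (chr13:99344789-99344818, plus strand), and all 3 lie after the start.
Mrps7: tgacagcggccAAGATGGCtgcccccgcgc
Mrps24: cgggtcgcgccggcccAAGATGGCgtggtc
Mrps27: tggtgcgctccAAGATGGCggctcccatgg

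Many of the genes have a neighbour that starts close by on the other strand. A start on the opposite strand within 1000 bases was annotated for 37 of the 78 genes (47.4%), against 18.4% of 22030 protein-coding genes. The partner was protein-coding for 33 (42.3% against 10.8%). Gaps between these starts ran from -891 to 935 bases, and a negative gap means that the 5′ ends overlap. Of the pairs named next, the gap was -412 bases for Mrps11, 172 for Mrps12, -29 for Mrpl36, -615 for Mrpl47 and -779 for Mrpl43. Mrps11 and Mrpl46 face each other, and Mrps12 faces Sars2 (the mitochondrial seryl-tRNA synthetase). Mrpl36 faces Ndufs6 and Mrpl47 faces Ndufb5 (both subunits of respiratory complex I). Mrpl43 faces Twnk, the helicase that unwinds mitochondrial DNA for its replication. Among 31 such partners that were not of the set and were tested, 19 were below 0 in log2 fold change, their median being -0.12, against a median of -0.47 for the genes they face. Exons of 28 of the 78 genes overlap a gene on the other strand and those of 8 overlap a gene on the same strand. The libraries were strand-specific, but the strand option used for counting is not given in the sources used here, so reads of such pairs may not be separated.

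Levels were compared per kilobase of annotated exon. The median over the genes was 10.3 CPM per kb (mean over 7 mice), the middle 50% lay between 5.61 and 17.4 CPM per kb, and 61 of the 78 lay above the median of all protein-coding genes tested, 4.96 CPM per kb. The large subunit genes had a median level of 11.3 CPM per kb and the small subunit genes of 8.37 CPM per kb. For comparison, the median level was 48.0 CPM per kb over 85 nuclear genes of oxidative phosphorylation and 15.3 CPM per kb over 80 cytoplasmic ribosomal protein genes.

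The highest level was that of Mrpl41 at 42.2 ± 13.8 CPM per kb (SD, n = 7), followed by Mrpl34 at 41.5 ± 17.9, Mrpl12 at 35.7 ± 13.9, Mrpl54 at 34.1 ± 16.0 and Mrps21 at 30.9 ± 14.6 CPM per kb. The SD over the mice includes changes that the genes share, so it is not the spread of a difference between genes. The order of these 5 was not tested. In controls alone Mrpl34 came first, at 55.5 CPM per kb, and Mrpl41 next, at 54.7 CPM per kb. The lowest levels were those of Mrpl53 at 0.610 ± 0.477 CPM per kb, Mrpl23 at 0.945 ± 0.231, Mrps36 at 1.23 ± 0.357, Mrps35 at 2.62 ± 0.271 and Mrpl48 at 2.64 ± 0.735 CPM per kb. Mrpl23, Mrpl48 and Mrps36 have annotated pseudogenes of the same name, to which their reads may be lost, and Mrpl53 overlaps other annotated genes on both strands, so these levels are uncertain. The Spearman correlation across genes between levels per kb of exon and per kb of the longest transcript was 0.959, but the top of the order depended on the length used. Per kb of the longest transcript Mrpl20 came first, at 61.5 CPM per kb against 29.96 CPM per kb of exon, and Mrpl41 next, at 48.3 CPM per kb.

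**Figure D1:**
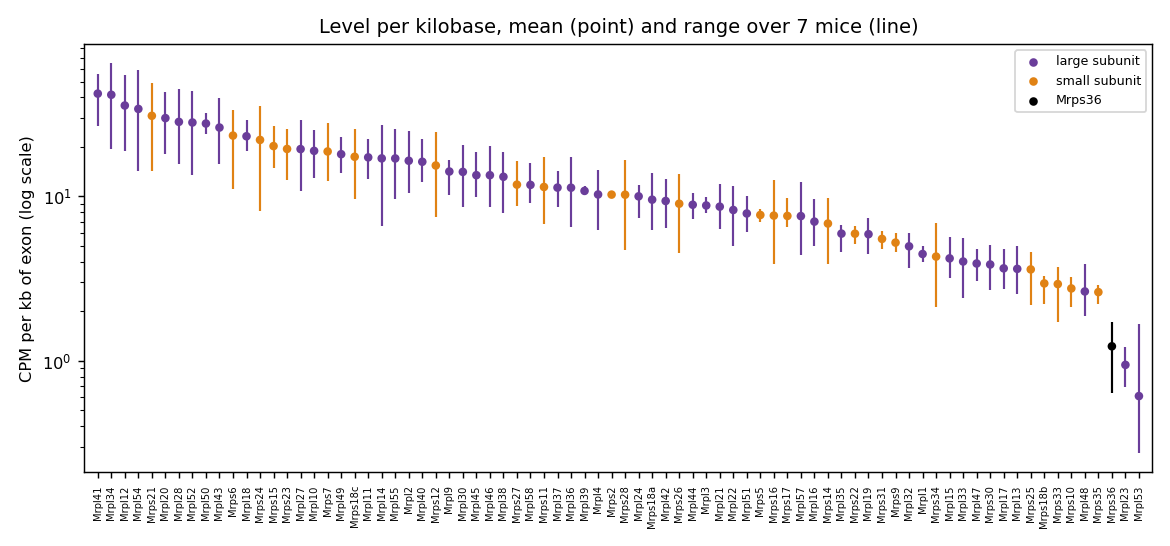
Level of each of the 78 genes in CPM per kb of exon (log scale), in order of the mean over 7 mice; points are means and lines run from the lowest to the highest mouse. The levels span from 42.2 CPM per kb (Mrpl41) to 0.610 CPM per kb (Mrpl53), and large and small subunit genes are intermixed.

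In cKO mice the mitoribosomal protein genes took a smaller share of the counts in 3 of 4 mice. Controls A2, A4 and A6 had shares of 0.249%, 0.288% and 0.250%, and cKO mice B1, B7, B8 and B9 had shares of 0.172%, 0.150%, 0.254% and 0.162%. Mice B1, B7 and B9 thus lay below all controls, and B8 lay among them. The share of counted pairs that aligned to more than 1 place moved with these mice, at 9.76%, 8.14% and 8.33% in B1, B7 and B9 against 10.6% to 11.1% in controls and B8, and its part in the result was not tested. The mean share was 0.262% ± 0.0220 (SD, n = 3) in controls and 0.184% ± 0.0471 (SD, n = 4) in cKO mice, 70.3% of the control mean. In tissue RNA, fewer cells of a type that uses these genes and less of their RNA per cell cannot be told apart.

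The summed level showed the same picture, at 2441, 2905 and 2426 CPM in A2, A4 and A6 against 1719, 1581, 2455 and 1667 CPM in B1, B7, B8 and B9. Group means were 2590 ± 272 CPM (SD, n = 3) for controls, compared with 1856 ± 404 CPM (SD, n = 4) for the mutants. The ratio of large to small subunit genes in summed level was 2.31, 2.30 and 2.28 in A2, A4 and A6 and 2.24, 2.25 and 2.27 in B1, B7 and B9. These 3 mice lay below the controls by a small margin, and B8 at 2.29 lay among the controls. The mean ratio was 2.30 ± 0.0147 (SD, n = 3) in controls and 2.26 ± 0.0253 (SD, n = 4) in cKO mice. The median Pearson correlation of log2 CPM over the 3003 pairs of genes was 0.893 across the 7 libraries. It was above 0 in 2723 pairs and -0.911 at the lowest, and the first principal component held 90.9% of their variance. These values are descriptive, as all genes of a library share its depth and composition.

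**Figure D2:**
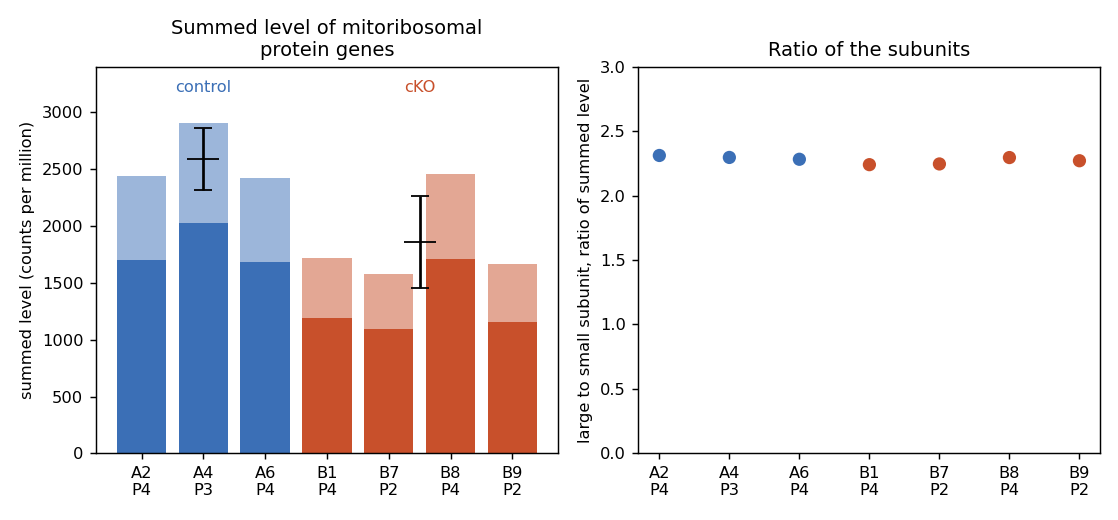
Left, summed level in CPM per mouse, with large subunit genes in the dark and small subunit genes in the light part of each bar; black marks give the group mean and SD (n = 3 control, n = 4 cKO). Right, the ratio of large to small subunit genes per mouse. Mice B1, B7 and B9 lie between 1581 and 1719 CPM, B8 lies at 2455 CPM among the controls, and the ratio is between 2.24 and 2.27 in the first 3 and between 2.28 and 2.31 in the others.

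The first question was which of the genes differed between cKO and control mice. With edgeR's quasi-likelihood test and Benjamini-Hochberg adjustment over 21817 genes, 0 of the 78 passed an adjusted p of 0.05, where 0.00458% of all genes did, a single gene, *Brn3b*. The adjusted p of the 78 genes ran from 0.138 to 0.946. The direction was nonetheless uneven: 74 of the 78 had a log2 fold change below 0, against 10874 of the 21817 genes tested, and the median log2 fold change was -0.47, against 0.0025 over all genes. At an unadjusted edgeR p under 0.05, 47 of the 78 were lower and 0 were higher, where 13.7% of all genes were lower. In 12 of the 78 genes all 4 cKO mice lay below all 3 controls, against 8.01% of all genes. An exact two-sided permutation test over the 35 splits of the mice gave these 12 genes the smallest p it allows, 0.0571, so that this two-sided test cannot reach 0.05 here.

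DESeq2, the tool the study's methods name, called 7 of the 77 genes to which it gave an adjusted p, all lower, where 3.04% of all genes were called lower. The 7 were Mrps18c, Mrps24, Mrpl14, Mrpl21, Mrpl30, Mrpl41 and Mrpl33. When any of A2, A4, A6, B1, B7 or B9 was left out, DESeq2 called 0 of the 78, and when B8 was left out it called 59, where 19.3% of all genes were called lower. With limma-voom and sample quality weights, which give less weight to libraries that scatter, 60 of the 78 were called lower, where 24.3% of all genes were.

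The edgeR count changed with 1 mouse, B8. Without B8, edgeR called 60 of the 78 genes lower and 0 higher, with a median log2 fold change of -0.66, against a median of -0.0044 over all 21122 genes tested. In that comparison 23.1% of all genes were called lower and 4997 genes were called higher. In 67 of the 78 genes B1, B7 and B9 lay below all 3 controls, against 28.0% of all genes, while in 63 of the 78 B8 lay at or above the lowest control, as it did in 78.4% of all genes. The 18 genes not called without B8 were Mrpl1, Mrpl3, Mrpl32, Mrpl35, Mrpl39, Mrpl44, Mrpl47, Mrpl50, Mrpl53, Mrps2, Mrps5, Mrps9, Mrps10, Mrps18b, Mrps22, Mrps31, Mrps35 and Mrps36. The labels give no reason to set B8 apart from B1, which has the same genotype and age. B8 was set apart after these same values were seen, and p-values without it do not allow for that choice.

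**Figure D3:**
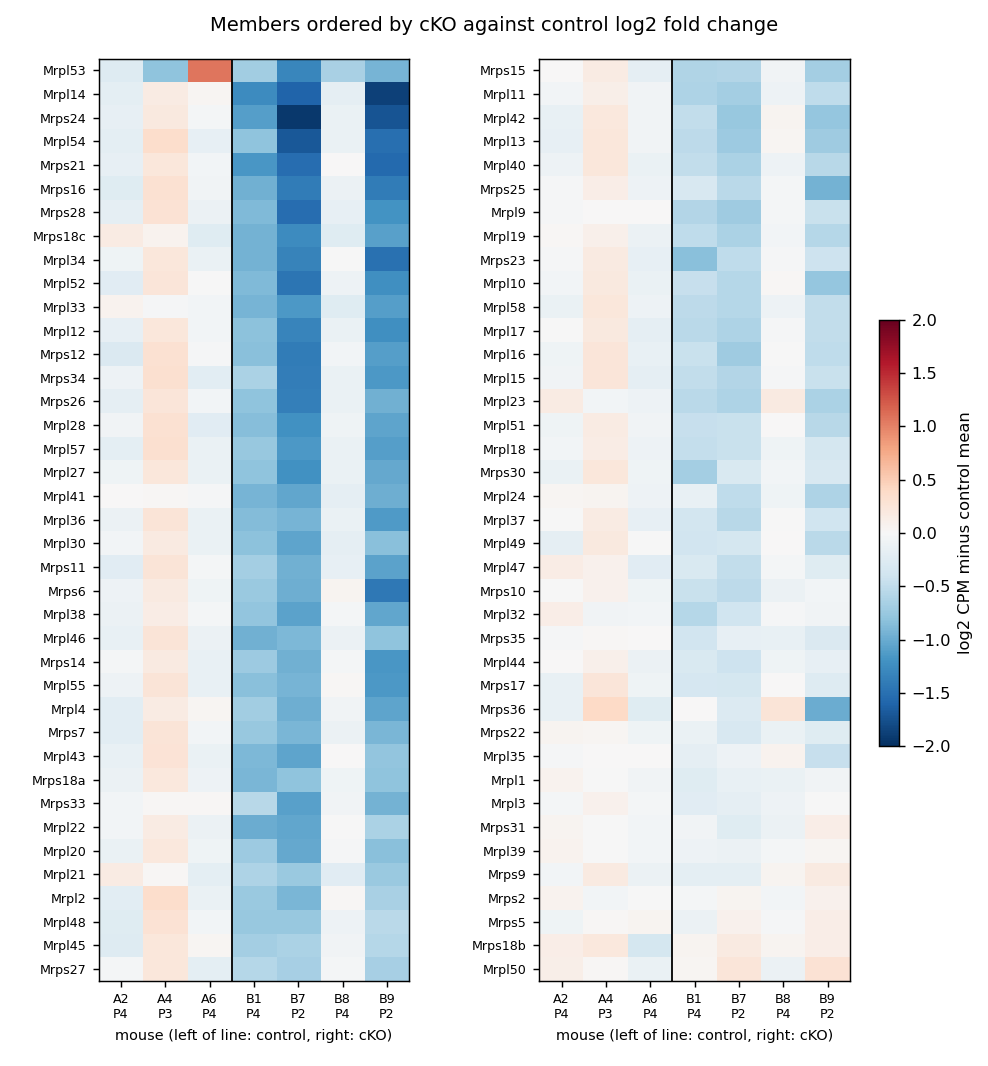
Colours give log2 CPM minus the mean of the controls for each of the 78 genes (rows, from the lowest to the highest log2 fold change, continued in the right panel) in each mouse (columns, controls left of the line). B1, B7 and B9 are low over most rows, B8 is close to the controls, and the last rows of the right panel, such as Mrps5 and Mrpl50, show little difference.

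Among large subunit genes with a bacterial counterpart, 30 of 30 had a log2 fold change below 0, with a median of -0.46, and 19 had an unadjusted edgeR p under 0.05, where 13.7% of all genes were lower. The lateral stalk, which recruits translation factors to the ribosome, is built from Mrpl12 on a base of Mrpl10 and Mrpl11. Mrpl12 (chr11:120484613-120489065, GRCm38) was at 63.8, 84.1 and 69.2 CPM in A2, A4 and A6 and at 40.8, 28.9, 65.8 and 30.7 CPM in B1, B7, B8 and B9. All cKO mice but B8 lay below the controls, and the log2 fold change was -0.80 ± 0.27 (SE; edgeR adjusted p = 0.138), or -1.12 ± 0.15 without B8 (adjusted p = 0.000152). Mrpl11 (chr19:4962147-4966999) was at 64.0, 71.7 and 63.0 CPM in controls, compared with 43.0, 41.1, 61.6 and 46.5 CPM among cKO mice. Here the groups did not overlap, although B8 lay just under the lowest control, and the log2 fold change was -0.46 ± 0.16 (adjusted p = 0.138). For Mrpl10 (chr11:97041560-97049213) the values were 36.1, 43.1 and 34.1 CPM in controls, compared with 27.4, 25.4, 38.2 and 22.02 CPM in cKO mice, with B8 above 2 of the controls and a log2 fold change of -0.42 ± 0.20 (adjusted p = 0.176).

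Lower values were found in other genes of this class. Mrpl14 (chr17:45686322-45698495), which lies at the interface of the subunits, was at 19.997, 25.9 and 23.5 CPM in controls, compared with 9.55, 7.57, 20.4 and 6.27 CPM among cKO mice. The log2 fold change was -1.08 ± 0.36 (edgeR adjusted p = 0.138, DESeq2 adjusted p = 0.0396). Mrpl34, also among the highest in level per kb, was at 31.4, 39.1 and 30.5 CPM in controls, compared with 17.3, 13.2, 33.2 and 11.8 CPM among cKO mice, with a log2 fold change of -0.84 ± 0.33 (edgeR adjusted p = 0.141). In both genes the 3 low cKO mice were far below the controls and B8 was among them. Mrpl33 (chr5:31596935-31664384) had the lowest edgeR p of the set. It was at 40.9, 38.4 and 37.6 CPM in controls, compared with 20.5, 17.5, 33.1 and 18.04 CPM among cKO mice, without overlap, with a log2 fold change of -0.81 ± 0.22 (edgeR adjusted p = 0.138, DESeq2 adjusted p = 0.0292). An annotated gene overlaps Mrpl33 on the same strand. Mrpl30 (55.8, 65.9 and 52.8 CPM in controls, 32.6, 27.9, 51.0 and 32.5 CPM among cKO mice) and Mrpl21 (24.0, 21.7 and 18.6 CPM in controls, 13.96, 12.8, 18.1 and 12.8 CPM among cKO mice) also showed no overlap between groups. Their log2 fold changes were -0.69 ± 0.21 and -0.57 ± 0.18 (edgeR adjusted p = 0.138 for both).

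Mrpl3, whose product lies near the catalytic centre, was at 59.7, 65.7 and 59.9 CPM in controls, compared with 52.6, 54.3, 57.2 and 61.4 CPM among cKO mice. The groups overlapped through B9, and the log2 fold change was -0.13 ± 0.12 (edgeR adjusted p = 0.464). Mrpl32, which is known to be cut by the mitochondrial m-AAA protease before it enters the ribosome, was at 29.9, 25.9 and 26.1 CPM in controls, compared with 18.4, 20.7, 26.7 and 25.8 CPM among cKO mice (log2 fold change -0.25 ± 0.17, adjusted p = 0.308). In this gene B1 and B7 were low and B8 and B9 were close to the controls. Mrpl23, which lines the exit of the peptide tunnel, was at 4.93 to 5.89 CPM in controls, compared with 3.63, 3.41, 5.96 and 3.39 CPM among cKO mice (log2 fold change -0.37 ± 0.25, adjusted p = 0.319). B1, B7 and B9 lay below all controls and B8 above them, and without B8 edgeR called it lower (-0.61 ± 0.20, adjusted p = 0.0240).

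Of the large subunit genes specific to mitochondria, 20 of 21 had a log2 fold change below 0, with a median of -0.49. Mrpl41, one of the genes with the highest levels per kb, was at 48.7, 49.5 and 47.5 CPM in controls, compared with 25.5, 23.7, 42.9 and 24.7 CPM among cKO mice. The controls were close together, all cKO mice lay below them, and the log2 fold change was -0.73 ± 0.21 (edgeR adjusted p = 0.138, DESeq2 adjusted p = 0.0357). Mrpl54 was at 33.1, 48.6 and 33.7 CPM in controls, compared with 21.7, 11.7, 34.6 and 13.2 CPM among cKO mice, with a log2 fold change of -0.93 ± 0.35 (edgeR adjusted p = 0.139). Mrpl53, which had the lowest log2 fold change of the 78 (-1.20 ± 0.53, edgeR adjusted p = 0.163), rests on 12, 13 and 36 counts in controls and 10, 14, 15 and 25 counts in cKO mice, of which only A6 lay well above the rest.

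Mrpl45, which anchors the ribosome at the inner membrane next to the tunnel exit, was at 34.5, 48.5 and 42.3 CPM in controls, compared with 25.7, 26.7, 39.2 and 27.7 CPM among cKO mice. B8 lay within the controls and the others below them, with a log2 fold change of -0.49 ± 0.19 (edgeR adjusted p = 0.140). Mrpl58, which releases stalled peptides by cleaving peptidyl-tRNA, had a log2 fold change of -0.42 ± 0.16 (adjusted p = 0.140), with 41.6 to 53.0 CPM in controls, compared with 31.7, 30.6, 42.4 and 32.3 CPM in cKO mice. Mrpl44, a relative of the RNase III enzymes, was at 14.8 to 17.3 CPM in controls, compared with 12.9, 12.03, 15.1 and 14.3 CPM among cKO mice (log2 fold change -0.24 ± 0.15, adjusted p = 0.285). Mrpl48 had a log2 fold change of -0.54 ± 0.21 (adjusted p = 0.140) and Mrps30 of -0.33 ± 0.18 (adjusted p = 0.217).

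Mrpl39 and Mrpl50 stood at the other end. Mrpl39 was at 29.4, 27.6 and 26.8 CPM in controls, compared with 26.1, 25.7, 27.3 and 28.6 CPM among cKO mice, with a log2 fold change of -0.05 ± 0.12 (edgeR adjusted p = 0.785). Mrpl50 was at 60.3, 56.6 and 50.9 CPM in controls, compared with 57.5, 66.2, 51.3 and 68.1 CPM among cKO mice. Its log2 fold change of 0.12 ± 0.14 (adjusted p = 0.575) was the highest of the 78, and the 2 highest values were those of the P2 mice B7 and B9.

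Among small subunit genes, 14 of 16 with a bacterial counterpart had a log2 fold change below 0, with a median of -0.67, and 9 of 10 specific to mitochondria, with a median of -0.43. The lowest values were found in genes with a bacterial counterpart. Mrps24 (chr11:5703983-5715680), which an annotated gene, Urgcp, overlaps on the same strand, was at 40.9, 52.4 and 44.4 CPM in controls, compared with 21.3, 11.997, 41.7 and 13.7 CPM among cKO mice, with a log2 fold change of -1.05 ± 0.38 (edgeR adjusted p = 0.138, DESeq2 adjusted p = 0.0483). Mrps21 was at 27.7, 36.4 and 29.8 CPM in controls, compared with 13.9, 10.8, 31.1 and 10.5 CPM among cKO mice (log2 fold change -0.92 ± 0.36, edgeR adjusted p = 0.140). In both, B7 and B9 were lowest, B1 was between them and the controls, and B8 was among the controls. Mrps16 (24.9, 36.3 and 28.1 CPM in controls, 15.1, 11.2, 27.2 and 11.1 CPM among cKO mice) had a log2 fold change of -0.89 ± 0.31 (adjusted p = 0.138).

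Mrps12, part of the decoding centre, was at 17.1, 25.7 and 20.4 CPM in controls, compared with 11.6, 7.84, 19.98 and 9.64 CPM among cKO mice, with a log2 fold change of -0.79 ± 0.30 (edgeR adjusted p = 0.140). Mrps7, an early assembling protein of the head, was at 41.98, 58.3 and 46.8 CPM in controls, compared with 28.8, 25.7, 44.9 and 25.7 CPM among cKO mice (log2 fold change -0.65 ± 0.22, adjusted p = 0.138). Again B8 was within the controls and the others were below. Mrps5 and Mrps2, both with a bacterial counterpart, did not share this pattern. Mrps5 was at 47.6, 51.1 and 52.3 CPM in controls, compared with 46.2, 53.3, 49.5 and 55.0 CPM among cKO mice (log2 fold change 0.02 ± 0.12, adjusted p = 0.924), and Mrps2 was at 28.6 to 31.1 CPM in controls, compared with 28.6 to 31.7 CPM in cKO mice (log2 fold change 0.01 ± 0.12, adjusted p = 0.946).

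Among small subunit genes specific to mitochondria, Mrps34, needed for stability of the small subunit, was at 10.7, 14.3 and 9.90 CPM in controls, compared with 7.37, 4.36, 10.4 and 5.16 CPM among cKO mice (log2 fold change -0.77 ± 0.30, edgeR adjusted p = 0.140). Mrps27, a pentatricopeptide repeat protein, was at 28.3, 34.1 and 25.6 CPM in controls, compared with 19.7, 18.5, 28.2 and 18.4 CPM among cKO mice (log2 fold change -0.47 ± 0.19, adjusted p = 0.145). Mrps22 and Mrps35 differed by less but without overlap between groups. Mrps22 was at 24.1 to 26.5 CPM in controls, compared with 20.5 to 23.4 CPM in cKO mice (log2 fold change -0.20 ± 0.13, adjusted p = 0.289), and Mrps35 at 24.3 to 25.1 CPM in controls, compared with 19.0 to 22.4 CPM in cKO mice (log2 fold change -0.24 ± 0.13, adjusted p = 0.226). Outside this class, Mrps9 has a bacterial counterpart and Mrps36 is not in the mitoribosome. Both were among the genes with no detectable difference, with log2 fold changes of -0.04 ± 0.15 and -0.23 ± 0.36. Mrps36 was at 0.811 to 2.20 CPM over all mice.

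Mouse has 3 versions of the bacterial protein S18, each present in the ribosome at its own place. Although it is one of these versions, Mrps18b was counted above among the small subunit genes specific to mitochondria. Mrps18a, in the large subunit, was at 40.4, 50.9 and 40.9 CPM in controls, compared with 23.1, 25.1, 41.3 and 25.2 CPM among cKO mice (log2 fold change -0.62 ± 0.21, edgeR adjusted p = 0.138). Mrps18c, in the small subunit, was at 27.8, 26.3 and 21.1 CPM in controls, compared with 12.9, 10.4, 21.1 and 11.7 CPM among cKO mice (log2 fold change -0.84 ± 0.24, edgeR adjusted p = 0.138, DESeq2 adjusted p = 0.0333). Mrps18b, also in the small subunit, was at 6.47, 6.84 and 4.602 CPM in controls, compared with 6.13, 6.66, 6.08 and 6.44 CPM among cKO mice (log2 fold change 0.08 ± 0.20, adjusted p = 0.787). Without B8, Mrps18a and Mrps18c were called lower and Mrps18b was not; whether their fold changes differ was not tested.

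Across the 7 libraries, the genes whose log2 CPM was most like that of Mrpl12 were Mrps16, Mrpl52 and Mrps24 (Pearson r of 0.997, 0.997 and 0.996). Those most like Mrps12 were Mrpl52, Mrps28 and Mrps26 (r of 0.997, 0.994 and 0.994).

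Age was examined within the cKO mice, of which B7 and B9 were P2 and B1 and B8 were P4. In edgeR, 0 of the 78 genes passed an adjusted p of 0.05 and 21 were lower at P2 at an unadjusted p under 0.05, where 9.30% of all genes were. DESeq2 called 2 of the 78 lower, against 1.49% of all genes. The median log2 fold change of P2 against P4 was -0.44, against -0.01 over all genes, and 65 of the 78 were below 0. The most negative values were those of Mrps24 (-1.30 ± 0.33), Mrpl54 (-1.18 ± 0.28), Mrpl14 (-1.12 ± 0.37) and Mrps21 (-1.09 ± 0.37), each with an edgeR adjusted p of 0.298. The most positive were those of Mrpl50 (0.30 ± 0.19), Mrps5 (0.17 ± 0.20), Mrps2 (0.12 ± 0.21) and Mrps18b (0.10 ± 0.28). The 2 P4 mice were far apart, at 1719 CPM in B1 and 2455 CPM in B8. With 1 of them left out, a single P4 library was set against the P2 mice and assumed to vary as the 2 P2 mice did, so that calls rest on that library. Without B8 the median was -0.09 and 0 genes were called, and without B1 the median was -0.69 and 51 were called, 50 of them lower, where 15.5% of all genes were called lower. Markers of dividing cells, meninges and red blood cells were also lower in median at P2, as given with the marker lists, and their part was not tested. The P2 libraries were also the deepest, with 67792192 and 87572085 counts on genes.

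The 2 P2 cKO mice were also set against the 3 controls, which differ from them in both genotype and age. Here edgeR called 58 of the 78 genes lower and 0 higher, where 24.0% of all genes were called lower, with a median log2 fold change of -0.72. The 2 P4 cKO mice against the same controls gave 0 calls and a median of -0.32. Both comparisons use the same controls, and genotype and age cannot be told apart in the first.

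The difference between cKO and control mice varied with the length of the gene, over the whole transcriptome and within the set. Across the 78 genes, the Spearman correlation of log2 fold change with log2 exon length was 0.577, and with GC content -0.525. Over 15513 protein-coding genes tested it was 0.579 for length and -0.429 for GC content. These correlations are across genes, which are not independent replicates. Genes of the set are short, with a median exon length of 2394 bases (607 to 8631) against 4376 bases for protein-coding genes tested. In single libraries, the correlation of a gene's deviation from the control mean with its length was 0.552, 0.574 and 0.554 for B1, B7 and B9, while for B8 it was 0.0819. In the controls it was 0.246 in A2, -0.385 in A4 and 0.220 in A6.

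Among the 26 shortest genes of the set (607 to 1664 bases) the median log2 fold change was -0.74, against -0.57 for 1340 protein-coding genes of the same length range. Among the 26 of middle length it was -0.47 against -0.29 for 3813 genes, and among the 26 longest (3332 to 8631 bases) -0.34 against 0.09 for 7983 genes. Lengths still vary within these classes, and no test was made between them. With the correction described next, the medians were -0.37, -0.25 and -0.47, against -0.21, -0.03 and 0.02 for those protein-coding genes. With a correction for length and GC content in each library, edgeR called 0 of the 78, 73 had a log2 fold change below 0, the median was -0.37 and 41 were lower at an unadjusted p under 0.05, where 11.3% of all genes were. After correction the Spearman correlation with length within the set was -0.274, opposite in sign to that before it. Mrpl39 and Mrpl44 turned to values above 0 and Mrps5 to -0.25 with this correction.

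**Figure D4:**
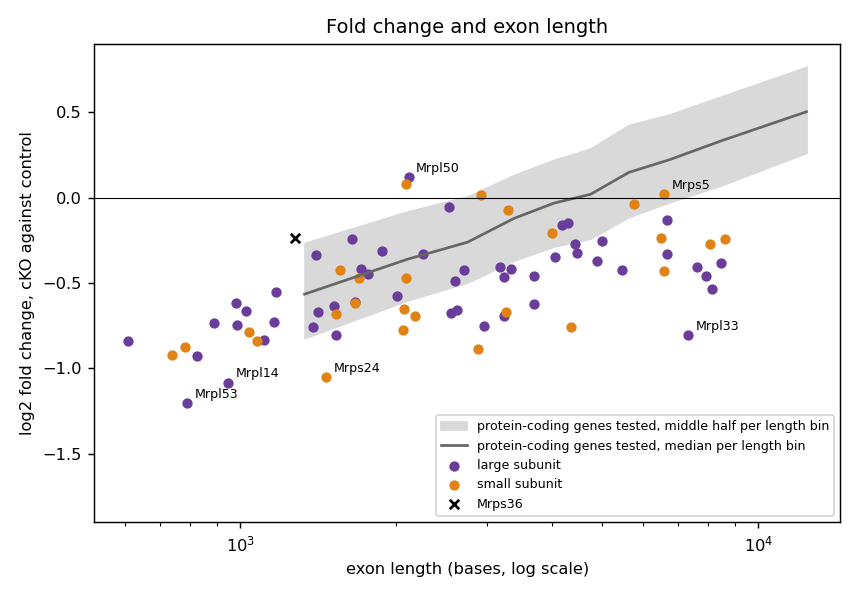
Log2 fold change of cKO against control (edgeR) by exon length (bases, log scale) for large subunit genes (purple), small subunit genes (orange) and Mrps36 (cross). The grey line and band give the median and the middle 50% of protein-coding genes tested in 10 bins of length, and most of the genes lie below the line, from -1.20 (Mrpl53) to 0.12 (Mrpl50).

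The other parts of mitochondrial translation are given for comparison, where 13.7% of all genes were lower at an unadjusted edgeR p under 0.05 and 23.1% were called lower without B8. Of 5 mitoribosome proteins with other names, Chchd1 (log2 fold change -0.62 ± 0.23), Aurkaip1 (-0.75 ± 0.30), Gadd45gip1 (-0.70 ± 0.21) and Dap3 (-0.20 ± 0.13) had values below 0. Ptcd3 was above 0 (0.53 ± 0.21), and none of the 5 had an edgeR adjusted p under 0.05. DESeq2 called 1 of the 5, Gadd45gip1, lower (DESeq2 adjusted p = 0.0419), where 3.04% of all genes were called lower. Ptcd3, a pentatricopeptide repeat protein of the small subunit, was at 30.5, 27.1 and 29.8 CPM in controls, compared with 41.7, 49.5, 26.6 and 49.8 CPM among cKO mice. B1, B7 and B9 thus lay above all controls, and without B8 edgeR called it higher. With the length and GC correction its log2 fold change was 0.17 ± 0.12 (edgeR adjusted p = 0.387).

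Of 27 factors that assemble the mitoribosome, 18 had a log2 fold change below 0, with a median of -0.30, and 8 were lower and 0 higher at an unadjusted edgeR p under 0.05. Without B8, 13 were called lower and 0 higher, among them Malsu1 (log2 fold change -0.79 ± 0.16 without B8), which holds the immature large subunit apart from the small one. Of 15 mitochondrial translation factors and regulators, 7 were below 0, with a median of 0.0049, and without B8 4 were called lower and 4 higher. With the length and GC correction 11 of the 15 were below 0, with a median of -0.16, and the median of the assembly factors was -0.11. The elongation factor Tufm was at 10.5, 13.4 and 9.68 CPM in controls, compared with 6.16, 4.38, 10.8 and 4.42 CPM among cKO mice. The elongation factor Gfm1 was at 28.8, 27.8 and 28.4 CPM in controls, compared with 36.0, 39.1, 26.7 and 42.9 CPM among cKO mice. In B1, B7 and B9 Tufm lay below and Gfm1 above all controls, with corrected log2 fold changes of -0.44 ± 0.20 and 0.23 ± 0.13.

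Of 19 aminoacyl-tRNA synthetases of mitochondria, 11 were below 0, with a median of -0.02, and without B8 3 were called lower and 2 higher. With the correction 13 of the 19 were below 0, with a median of -0.04. The 2 mitochondrial ribosomal RNAs, mt-Rnr1 and mt-Rnr2, had log2 fold changes of -0.34 ± 0.14 and -0.07 ± 0.10, but the libraries were enriched for polyA RNA, so their level follows that step as well. Among 11 messages of the mitochondrial genome that were tested, 10 were below 0, with a median of -0.23, and without B8 3 were called lower and 1 higher. With the correction 7 of the 11 were below 0, with a median of -0.05. Of these messages mt-Nd3, mt-Co2, mt-Co3 and mt-Atp6 held only 13 to 57 counts in any library, compared with 260809 to 858594 for mt-Co1, so that 4 of the 10 values below 0 rest on messages that were hardly counted. Of 82 nuclear genes of oxidative phosphorylation, 81 were below 0, with a median of -0.76, and without B8 72 were called lower. For the 80 cytoplasmic ribosomal protein genes, a family that includes many processed pseudogenes, 77 were below 0, with a median of -0.62, and 65 were called lower and 1 higher without B8. With the correction the medians of these last 2 lists were -0.54 and -0.35.

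**Figure D5:**
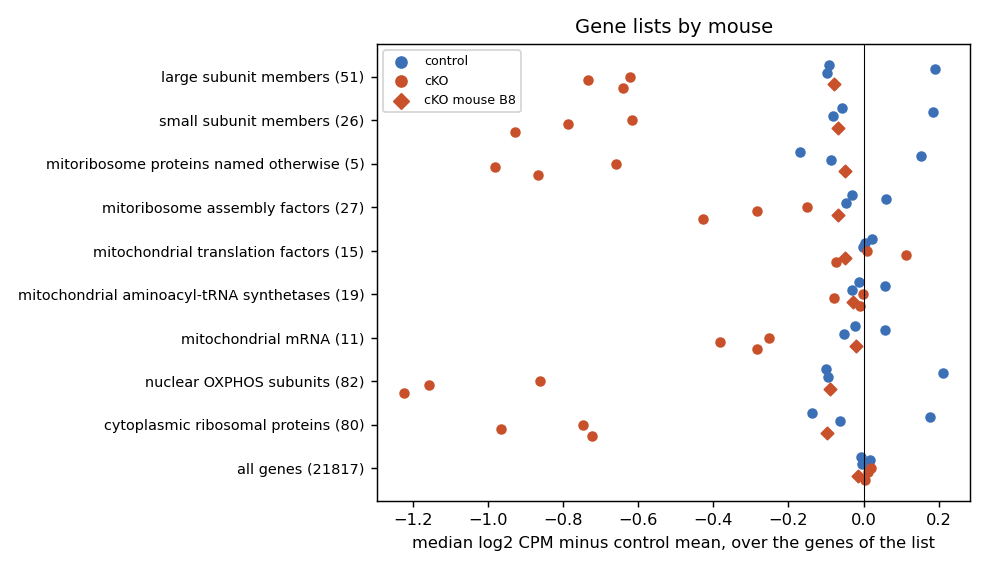
Median of log2 CPM minus the control mean over the genes of each list (number tested in brackets), 1 point per mouse, with controls in blue, cKO mice in orange and B8 as a diamond. B1, B7 and B9 lie below the other mice for mitoribosomal, oxidative phosphorylation and cytoplasmic ribosomal protein genes. They also do so for mitochondrial messages (-0.25, -0.38 and -0.28) and assembly factors (-0.15, -0.28 and -0.43). For translation factors and synthetases the medians of all mice lie between -0.0774 and 0.112, although single translation factors moved both ways.

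Markers of several cell types also moved with the mice that stood apart, and their part in the result was not tested. The 6 neuron markers (Rbfox3, Snap25, Syt1, Tubb3, Stmn2 and Nefl) summed to 4610 to 5495 CPM in controls, compared with 3627 to 4760 CPM in cKO mice, highest in B8, and 5 of 6 had a log2 fold change below 0, with a median of -0.24, or of -0.29 with the length and GC correction. The 6 astrocyte markers summed to 788 to 850 CPM in controls, compared with 853 CPM in B8, against 1060 to 1139 CPM in the 3 other cKO mice. Slc1a2 had the highest log2 fold change of the list (0.76), while Gfap and Aldh1l1 were at -0.29 and -0.18, and with the length and GC correction the median of the list went from 0.23 to -0.12. Of 5 endothelial markers 4 were above 0, with a median of 0.37, or of -0.03 with the correction. The 5 red blood cell markers summed to 132 to 496 CPM in controls, highest in A4, to 177 and 179 CPM in B1 and B8, and to 61.6 and 57.7 CPM in the P2 mice B7 and B9. The 6 microglia markers summed to 112 to 167 CPM in controls, compared with 82.9 to 121 CPM in cKO mice, and none of these 5 lists summed to 0 in any library. The median log2 fold change of P2 against P4 cKO mice was -0.91 for 6 markers of dividing cells, -0.96 for 4 of meninges, -0.48 for 7 of the oligodendrocyte lineage and -1.51 for those of red blood cells.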

How the data were processed

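Libraries were poly(A)-enriched, strand-specific (dUTP) and sequenced as paired 100-base reads. After trimming and alignment to GRCm38.p5 (TopHat2/Bowtie 2), the authors deposited raw HTSeq counts per gene (GENCODE vM15), with no normalization. Gene models came from GENCODE vM21 on the same build, which matched 52489 of 52636 identifiers. Entries naming no gene (30.98% to 38.18% of counted pairs) were left out.

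The test was edgeR 4.0.16 (R 4.3.3): filterByExpr (minimum count 10, minimum total 15), TMM factors and the quasi-likelihood test on condition alone, with Benjamini-Hochberg adjustment at 0.05. CPM values use TMM library sizes, and log2 CPM adds a prior count of 2. DESeq2 1.42.0, limma-voom (limma 3.58.1), offsets for length and GC content (mgcv 1.9.3), other filters and scalings, age and leaving out each mouse were alternatives. The edgeR, DESeq2, limma-voom and corrected edgeR fits were tested on simulated data with known changes.

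Libraries of a group differed beyond sampling noise (chi-square per degree of freedom 7.72 to 218), so each mouse was 1 replicate. The genes and lists were chosen with earlier results of these data known. Genes named are the 5 highest and 5 lowest by level per kb, the 6 highest and 6 lowest by log2 fold change, the 5 with the lowest edgeR p, the 4 highest and 4 lowest by age, a set list of known role, other-named mitoribosome proteins, *Brn3b*, and genes nearest the count minimum. Malsu1, Tufm and Gfm1 and genes named as neighbours were chosen after their values were seen.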

Additional observations from a re-analysis of the deposited data

Results flagged for a closer look

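Within the 4 cKO mice, B8 lay above the other 3 by a gap past Dixon's 95% critical value for the summed level of all 78 genes (2455 CPM), of the large subunit genes (1709 CPM) and of the small subunit genes (744.7 CPM), and for the median deviation from the controls (-0.0738 on the log2 scale). The share of counts (0.254% in B8) and the ratio of large to small subunit genes (2.29) did not pass it. A gap past that value was found for 11 of the 78 genes, each with B8 highest, where B8 was highest by such a gap in 874 of all 21817 genes tested (4.01%). They were Mrpl17 (31.7 CPM in B8), Mrpl23 (5.96 CPM), Mrpl41 (42.9 CPM), Mrpl45 (39.2 CPM), Mrpl46 (21.998 CPM), Mrpl58 (42.4 CPM), Mrps15 (38.6 CPM), Mrps18a (41.3 CPM), Mrps21 (31.1 CPM), Mrps27 (28.2 CPM) and Mrps7 (44.9 CPM). Chance gives such a gap in about 1 in 20 groups, counting any of the 4 mice at either end. Counted that way, it was found in 1606 of all 21817 genes tested (7.36%). The chance rate for B8 alone as the highest is lower, and the 78 genes are not independent of each other. The 3 controls were too few for this comparison.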

How the results depend on the processing

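The median log2 fold change of the 78 genes stayed below 0 under every alternative run, at -0.42 with age as a covariate and -0.23 with P4 mice only, both with 0 called. In some other settings the number called did not stay at 0. It was 7 with DESeq2, 60 with limma-voom, 58 for controls against P2 cKO mice and 6 with the length and GC correction in DESeq2. Over all genes the count went from 1 to 1994, 10583, 10425 and 1256 in these settings, and to 0 with P4 mice only. Leaving out 1 mouse gave 0 to 60 of the 78 in edgeR and 0 to 59 in DESeq2. Over all genes it gave 1 to 9867 in edgeR, and 579, 12, 206, 135, 68, 9951 and 56 in DESeq2 without A2, A4, A6, B1, B7, B8 and B9. For P2 against P4 cKO mice, DESeq2 called 2 of the 78 and 1.49% of all genes lower, and leaving out 1 mouse gave 0 to 51 calls and medians from -0.69 to -0.093. The ratio of large to small subunit genes was 2.10 without genes that have an overlapping gene or a pseudogene.

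Genes near 0 changed sign. With age as a covariate Mrps2 was at -0.016 and Mrps5 at -0.037. With P4 mice only Mrpl50 was at -0.030, Mrps2 at -0.078, Mrps36 at 0.35, Mrps5 at -0.059 and Mrps9 at 0.019. For controls against P4 cKO mice Mrpl50 was at -0.035, Mrps2 at -0.045, Mrps36 at 0.12 and Mrps5 at -0.067. With thinned counts Mrps5 was at -0.000133. With the length and GC correction Mrpl39 was at 0.059, Mrpl44 at 0.092 and Mrps5 at -0.25, or at 0.044, 0.077 and -0.27 in DESeq2. Leaving out 1 mouse gave ranges in edgeR of -0.028 to 0.061 for Mrps5, -0.016 to 0.037 for Mrps2, -0.44 to 0.0073 for Mrps36, -0.11 to 0.056 for Mrps9 and -0.075 to 0.19 for Mrps18b. In DESeq2, Mrps5 was at -0.017 without A2 and -0.015 without B9, Mrps2 at -0.0077 without A4 and -0.0082 without B9, Mrps36 at 0.010 without A4, Mrps9 at 0.064 without A4, 0.025 without B1 and 0.020 without B7, and Mrps18b at -0.073 without A6. The causes were not tested. Leaving out genes with overlaps cannot change the order by level. No paired analysis was possible because the labels give the mice no pairing, only numbers in order within each group. P2 occurs only among cKO mice, and with 3 and 4 mice the two-sided exact permutation test used cannot reach 0.05.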
